A study of Mus musculus with 8 samples.

Results

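Genes for the enzymes that remove acetyl groups from histones and for those that add or remove methyl groups on histone lysines were followed through an experiment on cytokine exposure and a DNMT3A genotype in mouse macrophages. They were picked by symbol, and this choice was made with earlier results of these data known. The symbols were those of the histone deacetylases (Hdac), the sirtuins (Sirt), the lysine demethylases (Kdm) and the Kmt2 and Kmt5 methyltransferases. Added to these were the Setd genes, Ehmt1 and Ehmt2, Ezh1 and Ezh2, Suv39h1 and Suv39h2, Nsd1 to Nsd3 and Dot1l. Of 55376 genes in the deposited table, 61 had such a symbol and 60 reached 10 counts in at least 2 libraries. The gene left out was Kdm4d, whose highest count was 9. All 60 passed the filter on low counts used for testing.

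Macrophages were grown from the bone marrow of male mice aged 13 weeks that were wild type (WT) or labelled DNMT3A-HET (HET), with 3 mice stated for each genotype. Marrow was cultured in M-CSF at 50 ng/mL, the growth factor that turns marrow progenitors into macrophages, in all 4 groups. The groups were WT control, WT with IL-6, HET control and HET with IL-6, where IL-6 was present at 10 ng/mL for 2 days from day 6 and RNA was taken on day 8. Each group had 2 libraries of polyadenylated RNA, numbered 1 and 2. The labels give neither the allele that the HET mice carry nor the mouse behind each library, nor whether mice were pooled, so the p-values rest on how far these libraries differ, which may be a technical difference.

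Acetyl groups on histone tails mark active chromatin, and deacetylases take them off. The zinc-dependent enzymes fall into class I (Hdac1, Hdac2, Hdac3, Hdac8), of which all but Hdac8 work in nuclear corepressor complexes, class IIa and IIb, and class IV with Hdac11 alone, while sirtuins use NAD+ and act in the nucleus, cytosol or mitochondria. Methylation has different meanings at different lysines: H3K4, H3K36 and H3K79 methylation go with transcription, and H3K9, H3K27 and H4K20 methylation with silent or compact chromatin. JmjC and LSD demethylases remove these marks. DNA methyltransferases such as Dnmt3a read the histone marks: their domains bind methylated H3K36 and the unmethylated H3K4 tail. In macrophages several of these enzymes, among them Kdm6b, are known as regulators of inflammatory genes.

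The libraries held 18926641 to 50137897 counts in genes, and 3 counts corresponded to 0.0598 to 0.159 CPM (read count relative to the library total). All other CPM values are scaled by the TMM method, whose factors were 0.982 to 1.02. The 60 genes took 0.379 to 0.403% of the counts. Libraries of a group differed more in WT than in HET: the median size of the log2 difference between the pair, over the 60 genes, was 0.127 for the WT controls and 0.103 for WT with IL-6, against 0.0628 for the HET controls and 0.0590 for HET with IL-6. Dnmt3a itself, which checks the genotype label, was 275 and 244 CPM in WT control and 166 and 248 CPM in HET control, and 175 and 183 CPM in WT IL-6 and 140.1 and 213 CPM in HET IL-6. The number 2 libraries labelled HET were thus not clearly below WT, and the averaged log2 difference of −0.17 ± 0.17 (SE) did not pass the test (edgeR adjusted p = 0.536), so HET below means the libraries labelled HET. Il4ra, a STAT3-responsive receptor gene, rose with IL-6 by 2.69 ± 0.07 on the log2 scale and Stat3 by 0.56 ± 0.06, while Socs3, an inhibitor of the pathway, differed by 0.06 ± 0.06 and was not called (adjusted p = 0.525). Macrophage markers summed to 13457 to 13978 CPM over the 4 controls and 15435 to 17526 CPM over the IL-6 libraries, without overlap. Sums were at most 2.89 CPM for neutrophil, 4.26 CPM for T- and NK-cell and 10.4 CPM for stromal markers. They were 10.2 to 22.4 CPM for megakaryocyte, 27.9 to 56.0 CPM for endothelial and 66.2 to 220 CPM for monocyte markers. Pax5, Cd3e, Cd3g and Lum were at 0 in all libraries.

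Divided by exon length (TPM), the 60 genes covered a wide range of levels. The most abundant were Ehmt2 (G9a, an H3K9 methyltransferase) with a mean of 109 TPM, Sirt2 (a mostly cytosolic deacetylase of tubulin and other proteins) with 108.9 TPM, Setd3 (which methylates actin) with 95.6 TPM and Hdac1 with 88.5 TPM. Kdm6b, an H3K27 demethylase, led the demethylases at 68.6 TPM, ahead of Kdm5c at 57.4 TPM and Kdm4a at 51.4 TPM. The lowest were Kdm5b, an H3K4 demethylase, at 1.78 TPM and Hdac11 at 0.31 TPM. Across the 8 libraries, the ratio of the highest to the lowest CPM was 14.8 for Hdac11, 2.11 for Nsd2, 1.99 for Sirt4 and 1.98 for Sirt1. It was only 1.13 for Kdm3b and Setd5 and 1.14 for Ehmt1 and Kmt2a.

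**Figure D1:**
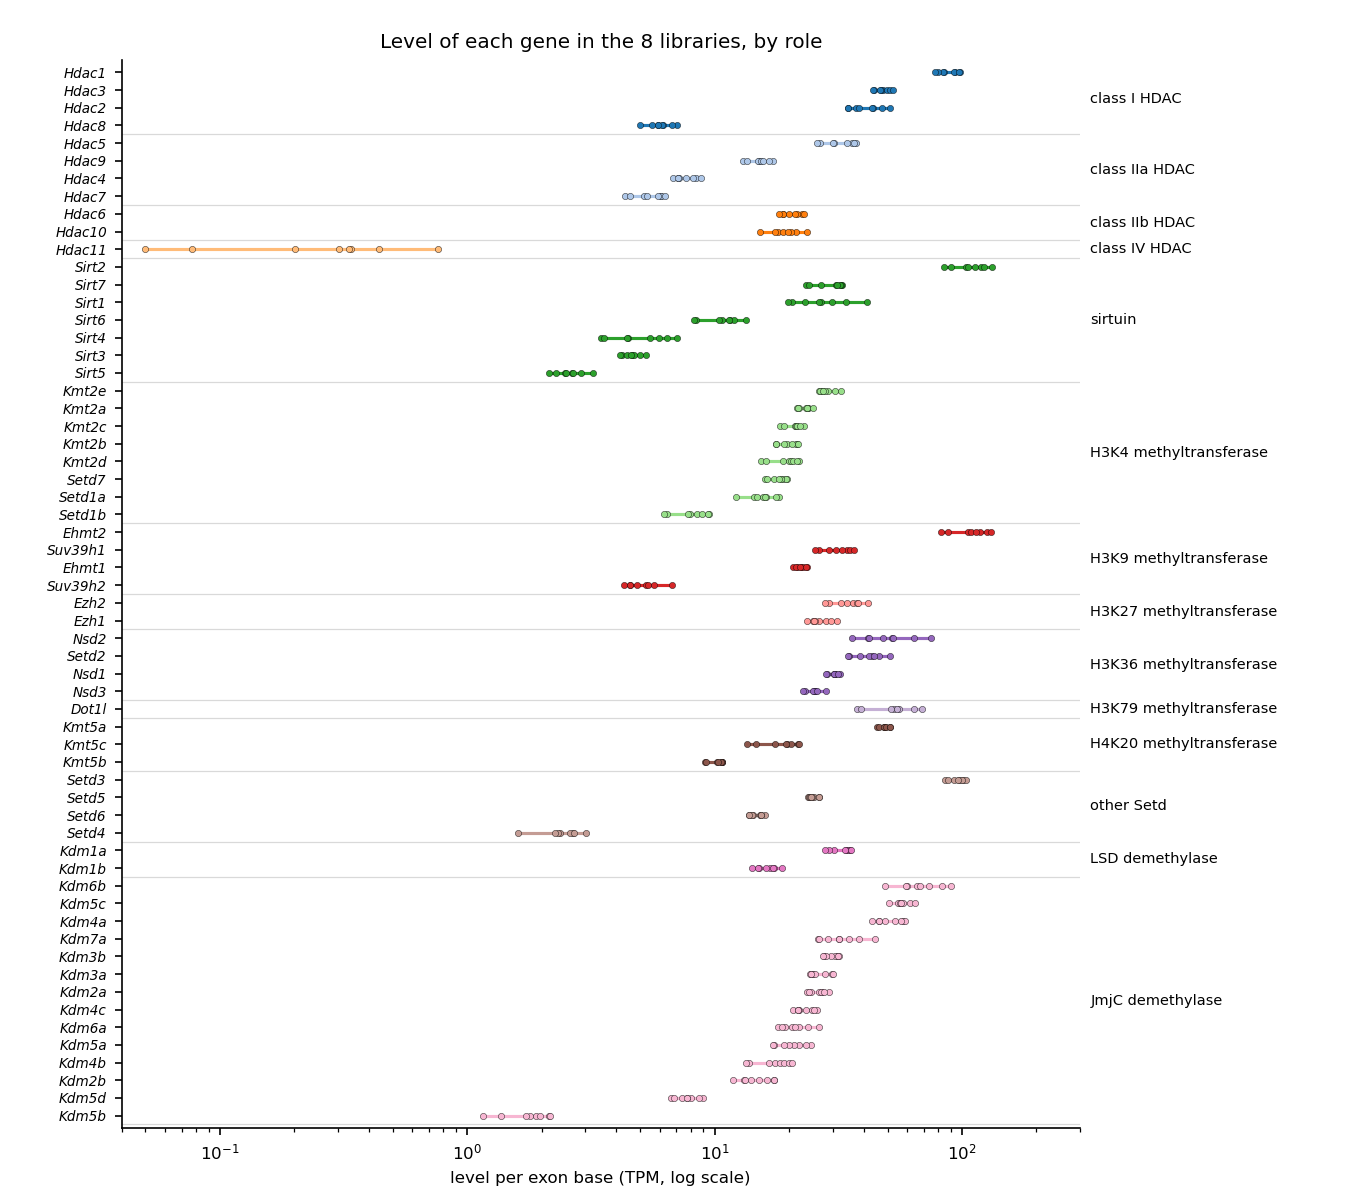
Level of each of the 60 genes per exon base (TPM, log scale), with 1 point for each of the 8 libraries and a bar from the lowest to the highest, grouped by the role of the enzyme. Ehmt2, Sirt2, Setd3 and Hdac1 lie furthest to the right, and Hdac11 has both the lowest level and the widest spread.

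Pairs of related enzymes could be set side by side per length. Ezh2 and Ezh1, the alternative catalytic subunits of Polycomb complex PRC2, had an Ezh2 to Ezh1 ratio in TPM of 1.04 and 1.29 for the WT controls and 1.77 and 1.37 for WT with IL-6, and of 1.43 and 1.28 for the HET controls and 1.14 and 1.11 for HET with IL-6. The highest ratio was in 1 WT IL-6 library and the lowest in 1 WT control library, and the other WT IL-6 library lay below 1 HET control. Kdm5c and Kdm5d, the X- and Y-linked H3K4 demethylases, had a ratio of 5.88 to 9.36, and Suv39h1 was at 5.07 to 7.20 times the level of Suv39h2, its paralog in H3K9 trimethylation.

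The first comparison asked how macrophages of either genotype responded to IL-6. Averaged over the genotypes, 5 of the 60 genes rose and 9 fell (edgeR quasi-likelihood test on all genes, adjusted p under 0.05), while 23.6% of all 13721 tested genes were called, 10.8% as higher and 12.8% as lower. The 14 of 60 called were thus near the share of all genes, and the median log2 fold change was −0.06, beside −0.01 over all genes. What rose was a methyltransferase, Nsd2, with the demethylases Kdm7a, Kdm5b, Kdm2a and Kdm5c. What fell came from the deacetylases (Sirt1, Hdac11), from methyltransferases of H3K79, H3K9, H3K4, H3K36 and H4K20 (Dot1l, Ehmt2, Setd1b, Setd2, Kmt5c) and from 2 demethylases (Kdm6b, Kdm2b). The 5 endothelial markers, of which Emcn was at 0 throughout, moved with the treatment, as did the macrophage markers given above. The endothelial markers summed to 27.9 to 34.9 CPM over the 4 controls and 52.2 to 56.0 CPM over the IL-6 libraries. The part of either set in these calls was not tested. These are bulk libraries, in which fewer cells of a kind and less RNA per cell cannot be told apart.

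Among the methyltransferases, Nsd2 had the clearest change. This enzyme places dimethyl marks on H3K36, and its gene lies at chr5:33820725-33897975 (mm10). Its level was 166 and 190.0 CPM in WT control, 350.3 and 301 CPM in WT IL-6, 221 and 192 CPM in HET control and 249.6 and 255 CPM in HET IL-6. All 4 IL-6 libraries were above all 4 controls, and the WT IL-6 libraries stood highest. The averaged log2 fold change was 0.58 ± 0.07 (edgeR adjusted p = 2.39e-05). No other H3K36 methyltransferase was called as higher: Setd2, the trimethylating enzyme, fell by 0.23 ± 0.06 (adjusted p = 0.00911), and Nsd1 and Nsd3 were not called in any comparison.

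Dot1l, the only known H3K79 methyltransferase (chr10:80755206-80795461), moved the other way. It was 133 and 126 CPM in WT control and 91.3 and 95.8 CPM in WT IL-6, and 152 and 164 CPM in HET control and 128 and 136 CPM in HET IL-6. Within each genotype the IL-6 libraries were lower without overlap, although the HET IL-6 values reached those of WT control. The averaged log2 fold change was −0.36 ± 0.06 (edgeR adjusted p = 0.000285). Kmt5c, which trimethylates H4K20, fell by 0.32 ± 0.08 (adjusted p = 0.00634), from 24.1 and 21.4 CPM to 15.0 and 16.6 CPM in WT, while both number 2 libraries of HET were at 22.3 CPM. Ehmt2 fell by 0.25 ± 0.06 (adjusted p = 0.006), and Setd1b, an H3K4 methyltransferase of a COMPASS complex, by 0.24 ± 0.07 (adjusted p = 0.022). The call on Setd1b ended when GC content and length were modelled (−0.17, adjusted p = 0.0617).

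Demethylases moved in both directions: 4 of 14 JmjC genes rose and 2 fell, and neither LSD gene was called. Kdm7a, which acts on H3K9 and H3K27 dimethyl marks, lies at chr6:39136623-39206789. It was 79.8 and 95.5 CPM in WT control and 124 and 109 CPM in WT IL-6, and 71.8 and 72.7 CPM in HET control and 91.1 and 91.6 CPM in HET IL-6. Each genotype showed a gap between its controls and its IL-6 libraries, and HET sat lower than WT in each condition. The averaged log2 fold change was 0.37 ± 0.07 (edgeR adjusted p = 0.000961). Kdm5b rose by 0.42 ± 0.11 (adjusted p = 0.00919) at a low level of 5.25 to 10.2 CPM, and this call ended without HET control number 1 (adjusted p = 0.0558).

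Kdm6b, the H3K27 demethylase known for its induction by bacterial products in macrophages, was lower after IL-6. It was 126 and 139 CPM in WT control, 94.2 and 117 CPM in WT IL-6, 158 and 172 CPM in HET control and 117 and 135 CPM in HET IL-6. IL-6 libraries lay below the controls of their genotype, with a log2 fold change of −0.35 ± 0.08 (edgeR adjusted p = 0.00347). Kdm2b, which removes H3K36 methyl groups and brings a PRC1 complex to CG-rich promoters, fell by 0.29 ± 0.06 (adjusted p = 0.00377), from 44.5 to 51.8 CPM over the 4 controls to 36.2 to 44.0 CPM over the IL-6 libraries.

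Of the deacetylases, none was called as higher in the average over genotypes. Sirt1, a nuclear NAD+-dependent enzyme (chr10:63319005-63381704), was 49.9 and 60.0 CPM in WT control and 44.0 and 34.8 CPM in WT IL-6, and 39.3 and 38.4 CPM in HET control and 31.2 and 30.3 CPM in HET IL-6. The order was the same in both genotypes, with HET below WT in each condition and no library of a control group overlapping its IL-6 group. The averaged log2 fold change was −0.41 ± 0.08 (edgeR adjusted p = 0.00199). Hdac11, known as a regulator of IL10 in antigen-presenting cells, had 9 and 18 counts in WT control but 2 and 1 in WT IL-6, against 8 and 11 in both HET groups. Summed over the libraries, its level in WT control was 8.07 times that in WT IL-6 (exact 95% interval 2.48 to 41.6, counting error only), and in HET 1.57 times (0.787 to 3.14). Its fitted log2 fold change of −1.78 ± 0.47 (adjusted p = 0.0127) rests on these few counts and depends on the prior count of the fit. The call ended when the number 2 library of any group but WT IL-6 was left out (adjusted p = 0.0632 to 0.0645).

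**Figure D2:**
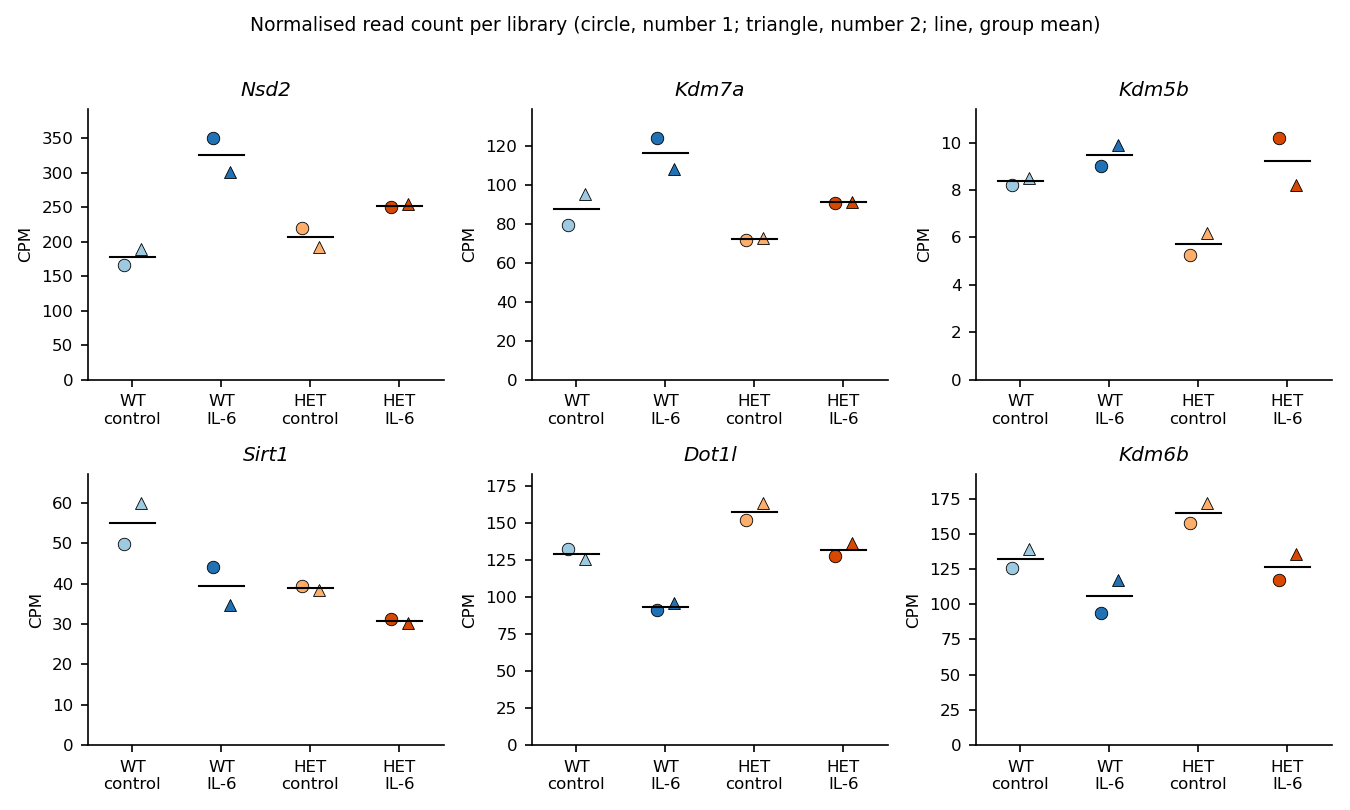
Normalised read count (CPM) of 6 genes in each library by group, with circles for number 1, triangles for number 2 and lines at the group means. Nsd2, Kdm7a and Kdm5b are higher in the IL-6 groups of both genotypes, and Sirt1, Dot1l and Kdm6b are lower.

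Calls on Nsd2, Kdm7a, Sirt1, Dot1l, Kdm6b and Kdm2b held when any 1 library was left out. Ehmt2 and Kmt5c were lost without HET IL-6 number 1 (adjusted p = 0.0584 and 0.0513), Setd2 without HET control number 2 or either HET IL-6 library (adjusted p = 0.0544, 0.0551 and 0.0575), and Setd1b without WT IL-6 number 2, either HET control library or HET IL-6 number 2 (adjusted p = 0.05 to 0.163). The rise of Kdm2a was lost without the number 1 library of either HET group (adjusted p = 0.0583 and 0.0522), and that of Kdm5c without the number 2 library of either WT group or without any HET library (adjusted p = 0.0813 to 0.162).

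Within WT, 12 of the 60 genes were called with IL-6, 2 higher and 10 lower, beside 18.3% of all genes (7.91% higher, 10.4% lower). The 2 that rose were Nsd2, by 0.87 ± 0.10 (edgeR adjusted p = 2.57e-05), and Kdm7a, by 0.41 ± 0.10 (adjusted p = 0.00793). The 10 that fell were Hdac11, Kmt5c, Sirt1, Dot1l, Ehmt2, Setd1b, Sirt2, Kdm4b, Kdm2b and Kmt2d, the last a methyltransferase of H3K4 at enhancers. Leaving Hdac11 aside, their log2 fold changes ran from −0.53 ± 0.11 (Kmt5c, adjusted p = 0.00394) to −0.27 ± 0.08 (Kmt2d, adjusted p = 0.0315). Only Nsd2, Dot1l (−0.47 ± 0.08, adjusted p = 0.000886) and Kmt5c were called whichever library was left out. The count was 7 without WT control number 1 and 5 without WT IL-6 number 1. Kmt2d, Setd1b and Kdm4b also lost their calls once GC content and length were modelled (adjusted p = 0.0791, 0.199 and 0.315).

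Within HET, 11 of the 60 were called, 5 higher and 6 lower, beside 18.3% of all genes (8.87% higher, 9.41% lower). With scaling by total counts the split was 3 higher and 8 lower, beside 7.24% and 11.3% of all genes. Kdm5b rose by 0.67 ± 0.15 (edgeR adjusted p = 0.00621), Kdm7a by 0.34 ± 0.10 (adjusted p = 0.0247), Kdm2a, an H3K36 demethylase, by 0.32 ± 0.08 (adjusted p = 0.0111), Sirt2 by 0.29 ± 0.09 (adjusted p = 0.0384) and Kmt5b, which dimethylates H4K20, by 0.25 ± 0.08 (adjusted p = 0.0451). Suv39h1, an H3K9 trimethylase of heterochromatin, fell by 0.41 ± 0.08 (adjusted p = 0.00274). Kdm6b, Ezh2, Kdm2b, Dot1l and Hdac1 fell by 0.38, 0.34, 0.28, 0.26 and 0.24 (adjusted p = 0.0225 to 0.0397). None of the 11 was called under every omission of a library, and without 1 of the 4 HET libraries only 1 or 2 genes were called. Nsd2 in HET was 0.29 ± 0.10 higher and missed the threshold (adjusted p = 0.0562).

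Over both genotypes 19 genes were called, of which Kdm7a, Dot1l and Kdm2b were called in the same direction in each and Sirt2 in opposite directions. The remaining 15 passed in 1 genotype only, which by itself does not show that the genotypes differ. This overlap was not counted over all tested genes, so it cannot be set against their share.

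Promoter sequences are shown for Kdm7a and Dot1l, called with opposite sign in both genotypes, and for Suv39h1, whose response differed between the genotypes. Dnmt3a methylates cytosines in CG, so each CG is in capitals. The windows are the 250 bases before a RefSeq start on GRCm38.p6, read 5′ to 3′ on the strand of the gene: chr6:39206774-39207023 (minus) for Kdm7a with 56 CG, chr10:80754953-80755202 (plus) for Dot1l with 44 CG, and chrX:8074761-8075010 (minus) for Suv39h1 with 11 CG. A second Suv39h1 window, chrX:8074362-8074611, lies inside the gene, has 25 CG and is not printed.
Kdm7a: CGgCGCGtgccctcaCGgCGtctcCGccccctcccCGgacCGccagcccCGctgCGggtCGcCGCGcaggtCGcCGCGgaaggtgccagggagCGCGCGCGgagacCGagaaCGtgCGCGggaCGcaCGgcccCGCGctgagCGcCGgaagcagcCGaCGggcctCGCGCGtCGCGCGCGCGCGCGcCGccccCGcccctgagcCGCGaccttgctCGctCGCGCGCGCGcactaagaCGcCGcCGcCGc
Dot1l: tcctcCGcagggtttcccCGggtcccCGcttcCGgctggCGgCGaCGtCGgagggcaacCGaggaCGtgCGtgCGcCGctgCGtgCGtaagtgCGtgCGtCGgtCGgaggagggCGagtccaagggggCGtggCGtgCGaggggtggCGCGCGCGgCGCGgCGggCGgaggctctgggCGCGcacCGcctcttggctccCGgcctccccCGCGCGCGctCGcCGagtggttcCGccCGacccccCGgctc
Suv39h1: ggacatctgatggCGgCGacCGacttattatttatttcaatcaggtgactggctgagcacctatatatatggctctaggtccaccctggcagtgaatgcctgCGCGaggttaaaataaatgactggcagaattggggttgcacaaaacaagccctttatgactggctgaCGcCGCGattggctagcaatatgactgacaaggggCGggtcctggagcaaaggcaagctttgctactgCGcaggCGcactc
RefSeq windows were found for 46 of the 60 genes (64 windows), with a median of 19.5 CG, beside 6 CG over 32841 windows of all genes. The letters TTCNNNGAA, the core that STAT factors bind, occurred on either strand in 9.38% of the windows (Hdac7, Kdm3a, Kmt2d, Setd7, Sirt7) and in 7.02% of all windows. The letters TTTNNCGC, part of the E2F motif, occurred in 6.25% (Kmt5c, Sirt3, Sirt4 and a second window of Suv39h1) and in 4.28% of all. Neither motif was in the 3 windows shown. DNA methylation was not measured here.

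The second comparison, the difference of the IL-6 responses (HET minus WT), called 6 of the 60 genes, beside 8.12% of all genes. The log2 response was lower in HET for Suv39h1, Ezh2, Hdac1 and Nsd2 (4 genes, beside 3.60% of all) and higher in HET for Sirt2 and Kdm4b (2 genes, beside 4.52% of all). The median difference was 0.02 in the 60 genes and 0.02 in all genes. This test uses all 8 libraries, so the comparisons of IL-6 within each genotype share its data.

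Suv39h1 lies at chrX:8061171-8074760, and 14.6% of its exon bases overlap Gm14820, which had 0 to 3 counts. It was 42.2 and 44.2 CPM in WT control and 50.1 and 48.4 CPM in WT IL-6, but 51.0 and 52.5 CPM in HET control and 39.6 and 38.6 CPM in HET IL-6. The groups did not overlap within a genotype, and the order of control and IL-6 was inverted between the genotypes. The difference was −0.60 ± 0.12 on the log2 scale (edgeR adjusted p = 0.0071), and this call alone of the 6 held without each single library. Its paralog Suv39h2 was not called in any comparison.

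In Ezh2 and Hdac1 the HET IL-6 libraries were low as well. Ezh2, the PRC2 methyltransferase (chr6:47530139-47595341), was 59.5 and 66.0 CPM in WT control, 77.3 and 64.3 CPM in WT IL-6, 68.8 and 69.5 CPM in HET control and 55.4 and 53.8 CPM in HET IL-6. The WT pairs overlapped, while the HET IL-6 libraries were the lowest of all 8. Hdac1 (chr4:129516104-129542713) was 80.5 and 78.3 CPM, then 89.8 and 89.6 CPM with IL-6 in WT, and 92.3 and 91.6 CPM, then 78.8 and 77.0 CPM with IL-6 in HET, with no overlap within a genotype. Differences were −0.52 ± 0.14 for Ezh2 (edgeR adjusted p = 0.0317) and −0.41 ± 0.11 for Hdac1 (adjusted p = 0.0285). Nsd2, which was higher with IL-6 in both genotypes, differed by −0.58 ± 0.14 (adjusted p = 0.0203).

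Sirt2 (chr7:28766735-28788661) was 165 and 142 CPM in WT control, 118 and 128 CPM in WT IL-6, 146 and 155 CPM in HET control and 177 and 190.4 CPM in HET IL-6. It was lower with IL-6 in WT and higher in HET, again without overlap within a genotype. The difference was 0.60 ± 0.13 (edgeR adjusted p = 0.0109). Kdm4b, which demethylates trimethylated H3K9, went from 23.6 and 22.1 CPM to 18.7 and 18.5 CPM in WT and from 24.6 and 25.4 CPM to 28.0 and 28.8 CPM in HET, a difference of 0.48 ± 0.13 (adjusted p = 0.038). With GC content and length modelled it was 0.27 (adjusted p = 0.123), whereas the other 5 calls held, with adjusted p from 0.000616 to 0.00598.

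**Figure D3:**
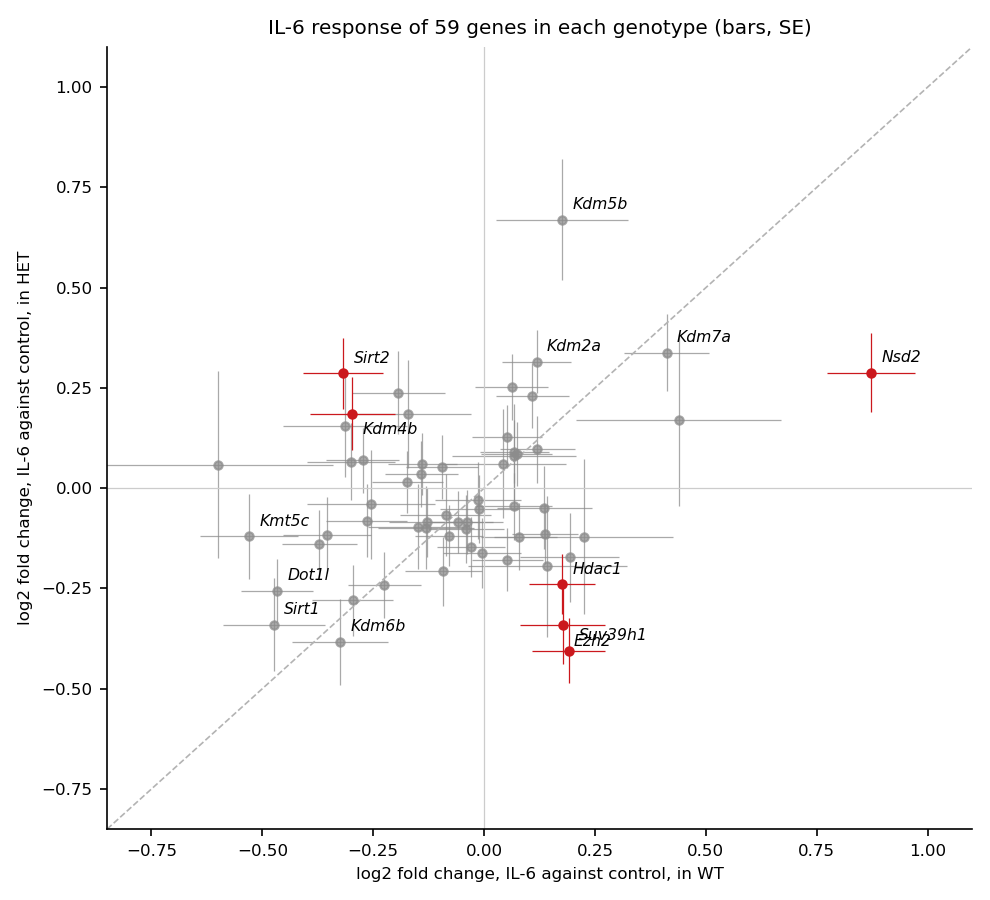
Log2 fold change of IL-6 against control in WT (horizontal) and in HET (vertical) for 59 genes, Hdac11 left out for its few counts, with bars of 1 SE. The 6 genes in red were called in the difference: Suv39h1, Ezh2 and Hdac1 fall at the lower right, Sirt2 and Kdm4b at the upper left, and Nsd2 to the far right.

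For Sirt2 the call ended if either HET control number 1 or number 2 of HET with IL-6 was omitted (adjusted p = 0.0834 and 0.0836). That on Nsd2 ended without WT IL-6 number 1, HET control number 1 or either HET IL-6 library (adjusted p = 0.0675 to 0.144), and that on Hdac1 without WT IL-6 number 1 or any HET library (adjusted p = 0.0710 to 0.147). Ezh2 ended in addition without WT control number 1 (adjusted p = 0.0724 to 0.134), and Kdm4b without any library but WT control number 2 (adjusted p = 0.0699 to 0.180). With both number 2 libraries labelled HET left out, for which Dnmt3a was not below WT, the differences were −0.55 for Suv39h1, −0.49 for Ezh2, −0.40 for Hdac1, −0.69 for Nsd2, 0.59 for Sirt2 and 0.48 for Kdm4b. They were close in size and none was called (edgeR adjusted p = 0.0654 to 0.37), beside 3.03% of all genes, while 9 of the 60 genes had an unadjusted p under 0.05.

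Genes of dividing cells moved with this pattern. The summed CPM of 14 mitosis genes, such as Cdk1 and Ccnb1, was 2254 and 2554 in WT control, 2781 and 2472 in WT IL-6, 2813 and 2650 in HET control and 1968 and 1926 in HET IL-6. The HET IL-6 libraries were the lowest of the 8, as for Suv39h1 and Ezh2, while for Hdac1 the WT control number 2 library lay between them. In the difference of responses 10 of the 14 were called lower in HET and 0 higher, with a median of −0.61. Of 15 genes of DNA replication and histone supply, 6 were called lower and 0 higher, with −0.62 for Mcm6 and −0.58 for Asf1b. Monocyte markers were also lowest there: the 5 genes, none at 0 throughout, summed to 87.0 and 119 CPM in WT control, 170.1 and 134 CPM in WT IL-6, 220 and 159 CPM in HET control and 66.2 and 69.0 CPM in HET IL-6. Of 4 tested, 1 was called lower and 0 higher in the difference (median −1.01). Neutrophil markers summed to 1.28 to 2.89 CPM, and 1 of 3 tested was called lower. The part of cell division or of these cell types in the 6 calls was not tested. These lists were chosen with earlier results of these data known and read in the same 8 libraries. They are thus a description and not separate support.

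**Figure D4:**
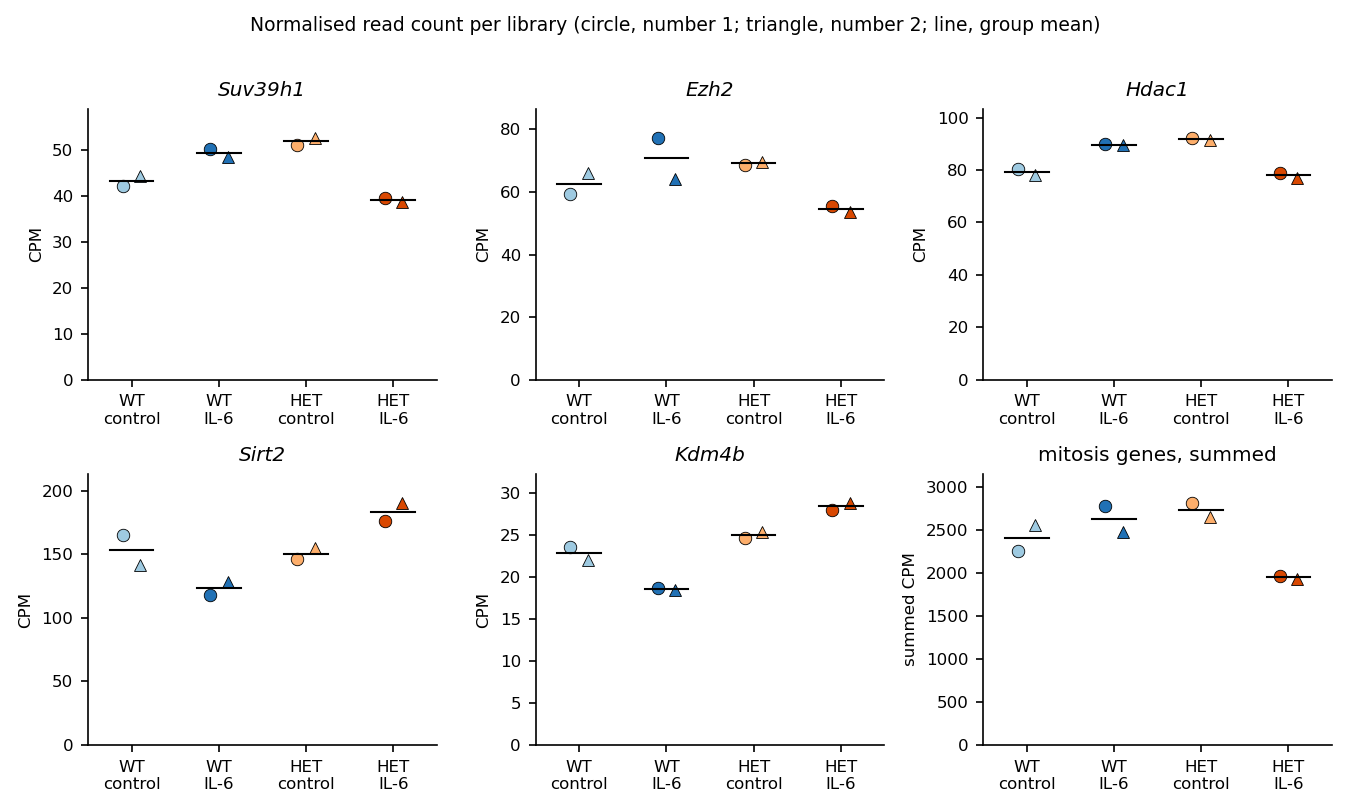
Normalised read count (CPM) per library of the genes Suv39h1, Ezh2, Hdac1, Sirt2 and Kdm4b and the summed count of 14 mitosis genes, with circles for number 1, triangles for number 2 and lines at the group means. The group means of Suv39h1, Ezh2, Hdac1 and the mitosis sum are lowest in HET with IL-6, and those of Sirt2 and Kdm4b are highest there.

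Partners of these enzymes were read from lists of other chromatin genes. In the difference of responses, 2 of 10 heterochromatin partners of H3K9 methylation had a lower response in HET, Cbx3 (−0.73) and Cbx5 (−0.64), and 0 a higher one, with a list median of −0.06. Psip1, a reader of methylated H3K36, was the 1 gene of 12 COMPASS partners called (−0.71, list median −0.06). Chd3, a helicase of the NuRD deacetylase complex, was the 1 of 28 corepressor genes called (0.61, list median 0.05). Phf1 was the 1 of 9 PRC2 partners called (0.84), against a list median of −0.22 with 2 of 9 positive, and its call ended with GC content and length modelled (adjusted p = 0.0755). With IL-6 averaged over genotypes, 1 of 28 genes of deacetylase corepressor complexes rose (Mbd2, by 0.33) and 5 fell, among them Sap30 of the Sin3 complex by 0.60. Of 13 histone acetyltransferases 1 fell (Ncoa3, by 0.36), and of 9 arginine methyltransferases none was called. Among 13 other JmjC genes Phf8 fell by 0.40 and Jmjd1c by 0.22, and among 16 other SET-domain genes Prdm1, the repressor Blimp-1, rose by 0.63 ± 0.07. Within the genotypes, the rise of Prdm1 was called in WT (1.18 ± 0.10), while in HET 0 of the 16 genes were called. The difference for Prdm1, HET minus WT, was −1.11 ± 0.13.

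The third comparison set HET against WT. In control macrophages 1 of the 60 genes was called, beside 4.85% of all genes (2.81% higher, 2.05% lower): Sirt1, at 49.9 and 60.0 CPM in WT control and 39.3 and 38.4 CPM in HET control, was lower in HET by 0.50 ± 0.11 on the log2 scale (edgeR adjusted p = 0.0274). With total count scaling 1 gene was higher and 1 lower, beside 2.95% and 1.83% of all genes. The Sirt1 call ended without WT control number 2, either HET control library or HET IL-6 number 2. Of the 60 genes, 22 had an unadjusted edgeR p under 0.05. The share of all genes at that level was not counted, so the 22 cannot be set against it.

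After IL-6, 20 of the 60 genes were called between HET and WT, 13 higher and 7 lower, beside 22.0% of all genes (13.2% higher, 8.80% lower). This comparison and that of IL-6 in WT share the WT IL-6 libraries. Among those higher in HET were sirtuins (Sirt6 by 0.62 ± 0.13, Sirt2 by 0.58 ± 0.09 and Sirt7 by 0.45 ± 0.10), methyltransferases (Dot1l by 0.50 ± 0.08, Kmt2d by 0.46 ± 0.08, Kmt5c by 0.43 ± 0.11, Setd1b by 0.43 ± 0.10 and Ehmt2 by 0.43 ± 0.08), the class IIa deacetylase Hdac5 by 0.46 ± 0.08 and the H3K9 demethylases Kdm4b by 0.61 ± 0.09 and Kdm4a by 0.41 ± 0.10 (edgeR adjusted p = 0.000697 to 0.0141). Among those lower were Hdac2 (−0.42 ± 0.11, adjusted p = 0.0166), Ezh2 (−0.38), Nsd2 (−0.37) and Suv39h1 (−0.33). Without WT IL-6 number 1, HET IL-6 number 1 or HET IL-6 number 2 the count was 7, 8 or 6, and 5 genes were called under every omission of a library.

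Averaged over the treatments, 24 of the 60 genes were called, 15 higher and 9 lower, beside 19.9% of all genes (11.9% higher, 7.99% lower). Class IIa deacetylases (3 of 4) and H3K4 methyltransferases (4 of 8) were called as higher only, and JmjC demethylases mostly as lower (6 of 14, with 2 higher). Among the called genes, Sirt1 was lowest relative to WT (−0.43 ± 0.08, edgeR adjusted p = 0.00341), and Dot1l (0.40 ± 0.06, adjusted p = 0.000722), Sirt6 (0.39 ± 0.10), Kdm4b (0.37 ± 0.07) and Hdac5 (0.37 ± 0.06) were highest. Hdac5, for example, was 63.9 to 73.6 CPM over the 4 WT libraries and 85.5 to 92.1 CPM over the 4 HET libraries, with no overlap. Without WT IL-6 number 1, or any 1 of the 4 HET libraries, 9 to 13 genes were called, and 8 were called under every omission.

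These genotype differences moved with base composition. The 15 genes called as higher had 52.6 to 60.0% GC in their transcripts, and the 9 called as lower 40.3 to 45.4%. Of 31 genes above 50% GC, 29 had a positive log2 difference (median 0.25), against 5 of the 29 others (median −0.11). The correlation of GC content with the averaged log2 difference was 0.912 over the 60 genes, which share the same 8 libraries, and 0.551 over 13651 tested genes. For the IL-6 response it was −0.370 (−0.144 over the tested genes) in WT and −0.0217 (0.0466) in HET. For the difference of responses it was 0.400 (0.183). Genes called there as higher in HET had 54.4 to 58.6% GC, and those called as lower 44.1 to 51.2%. As deviations of log2(CPM + 0.5) from each gene's mean over the libraries, the median of the 31 genes minus that of the 29 was −0.322 to −0.0126 in the 4 WT libraries and 0.119 to 0.191 in the 4 HET libraries, without overlap, so GC-related measurement and genotype cannot be told apart.

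**Figure D5:**
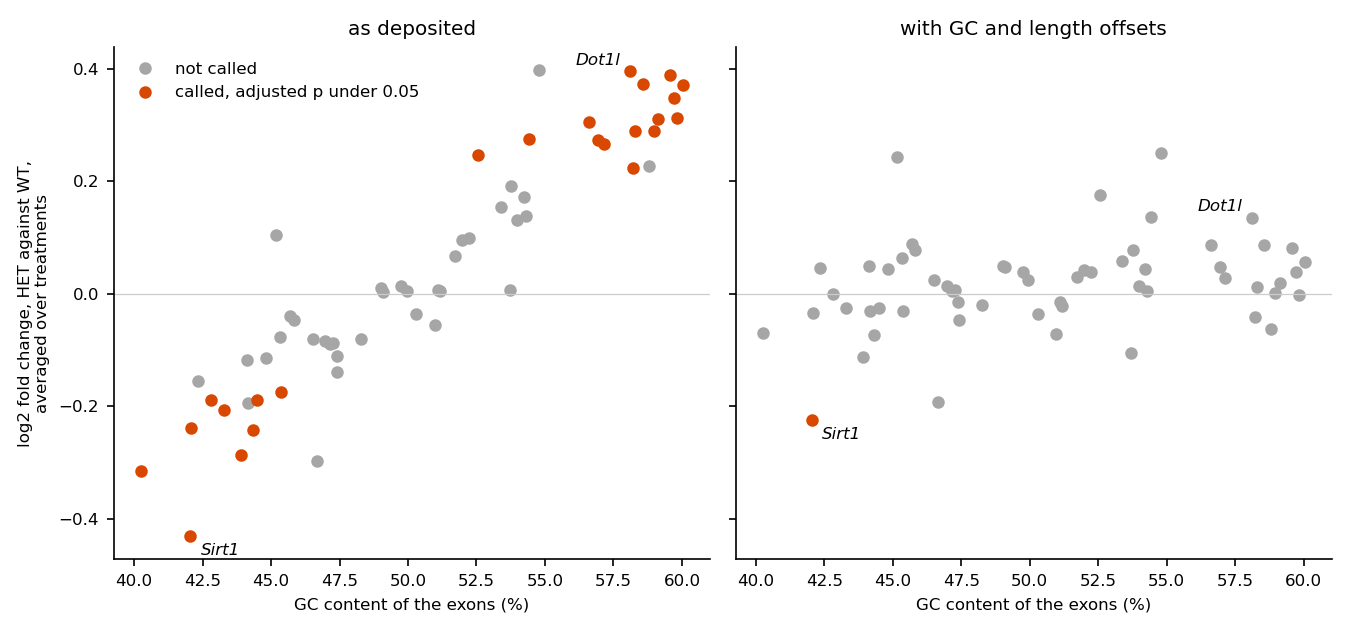
Averaged log2 fold change of HET against WT plotted against GC content (%), counted over the transcripts of each gene, for 59 genes, Hdac11 left out. Values are from the counts as deposited (left) and with a smooth of GC content and length modelled for each library (right). Called genes are orange: on the left they lie at both ends of a rising band, and on the right 1 gene, Sirt1, is called.

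With GC content and length modelled for each library, the averaged genotype comparison called 1 of the 60 genes, Sirt1 (−0.22 ± 0.05, edgeR adjusted p = 0.0335), beside 1.97% of all genes. The correlation of GC content with this difference was then −0.0153 over 13651 tested genes but still 0.326 over the 60. Sirt1, at 42.0% GC and lower in HET, lay along that remaining trend, and whether its call is free of it was not tested. The IL-6 condition had 5 calls, beside 10.4% of all genes: Sirt2 (0.41, adjusted p = 0.000685), Kdm4a (0.27, adjusted p = 0.0236) and Kmt2e (0.20, adjusted p = 0.0465) were higher in HET, and Suv39h1 (−0.32, adjusted p = 0.0094) and Hdac1 (−0.23, adjusted p = 0.0189) lower. In control, Ezh2 and Nsd2 were called as higher in HET and Sirt1 as lower, beside 349 and 339 of 13721 genes. Ezh2 and Nsd2 thus differed between the genotypes before IL-6 under this model. The averaged log2 difference was 0.06 for Hdac5 and 0.13 for Dot1l, and neither was called. Of the IL-6 calls, 13 of 14 averaged over genotype, 9 of 12 in WT and 11 of 11 in HET were made under both models, as were 5 of the 6 calls in the difference of responses.

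Finally, 24 of the 60 genes were called in none of the 7 comparisons. The matching share of all tested genes was not counted, so this number cannot be set against it. They include the class I deacetylases Hdac3 and Hdac8, both LSD demethylases (Kdm1a, Kdm1b), all 4 Setd genes outside the H3K4 and H3K36 enzymes (Setd3 to Setd6), the large H3K4 methyltransferases Kmt2a and Kmt2c, and the mitochondrial sirtuins Sirt3, Sirt4 and Sirt5. Hdac3, a nuclear deacetylase of corepressor complexes, was 50.7 to 58.4 CPM over all 8 libraries. For Sirt3, 12.7% of exon bases overlap other genes, among them the far more abundant Psmd13 (2219 to 5824 counts), so its counts are uncertain, as are those of Setd1a, with 52.3% of its exon bases overlapped. A call that was not made does not show that a level stayed the same.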

How the data were processed

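RNA sequencing of 8 macrophage libraries was analysed from the raw counts per gene that the authors deposited as 1 table. Per the submitters' processing notes, the tools were STAR 2.7.9a, featureCounts 1.6.2, fastp 0.12.4 and SAMtools 1.9, on genome build mm10. Which annotation was counted, and whether by strand, is not given in the sources used here, so reads of overlapping genes cannot be told apart. Coordinates of 99.4% of genes matched the gene models of GENCODE M21, and 26 symbols were stored as dates. GC content was counted over all M21 transcripts of a gene together, and exon lengths were those in the deposited table.

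Counts were tested in R 4.3.3 with edgeR 4.0.16 (filterByExpr with a minimum count of 10, TMM scaling, robust quasi-likelihood F test, 4 group means, 4 residual degrees of freedom). The tests were 2-sided, with Benjamini-Hochberg adjustment over 13721 genes, and a gene was called at an adjusted p under 0.05. SE is the log2 fold change divided by the square root of F. The spread was shared by all groups, although WT pairs differed more than HET pairs. Within the pairs, chi-square divided by the number of genes was 19.2, 13.3, 6.66 and 6.75 for WT control, WT IL-6, HET control and HET IL-6, so no pair was a repeat within sampling noise. The script was tested on simulated data.

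Alternatives were RLE scaling, total count scaling, DESeq2 1.42.0, no filter, replicate blocks, omission of libraries, and smooths of GC content and length for each library (mgcv 1.9.3). The genes, their role groups and the other lists were chosen with earlier results of these data known. Named genes were the called genes of a comparison, or the 12 with the largest change where there were more, plus those called in the difference of responses, and up to 3 called genes of each other list.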

Additional observations from a re-analysis of the deposited data

Results flagged for a closer look

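For 6 of the 60 genes the IL-6 response differed between the genotypes in the test of the difference itself (HET minus WT, log2 scale). Calls were made at an edgeR adjusted p under 0.05, as for 8.12% of all 13721 tested genes. The differences were −0.60 for Suv39h1, −0.58 for Nsd2, −0.52 for Ezh2 and −0.41 for Hdac1, and 0.60 for Sirt2 and 0.48 for Kdm4b. For Suv39h1 and Hdac1 the controls lay below the IL-6 libraries in WT and above them in HET, for Sirt2 and Kdm4b it was the reverse, and for Nsd2 IL-6 was higher in both genotypes. Of the 6 calls, that on Suv39h1 alone held whichever library was left out. The call on Kdm4b ended with GC content and length modelled. Under that model Ezh2 and Nsd2 were also called as higher in HET in control.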

How the results depend on the processing

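The 7 comparisons are given in a fixed order. They are IL-6 in WT, in HET and averaged, then HET against WT in control, after IL-6 and averaged, and last the difference of responses. In these, 12, 11, 14, 1, 20, 24 and 6 of the 60 genes were called. Of all genes, 18.3, 18.3, 23.6, 4.85, 22.0, 19.9 and 8.12% were called. Leaving out each library in turn gave 5 to 15, 1 to 16, 9 to 15, 0 to 7, 6 to 29, 9 to 31 and 1 to 11 calls. The numbers of genes called under every such omission were 3, 0, 6, 0, 5, 8 and 1. Leaving out both HET number 2 libraries gave 7, 1, 8, 0, 4, 2 and 0, and both HET number 1 libraries 7, 0, 6, 0, 7, 6 and 0. In the counts of 0, 5 and 9 genes (HET number 2) and 3, 5 and 8 genes (HET number 1) had an unadjusted edgeR p under 0.05. With 1 library left in a group, that library is assumed to vary like the others. Shares of all genes under these omissions are not given here. The counts therefore do not show whether the 60 genes were more or less stable than other genes. Omitting 1 library left no call between HET and WT in control in 4 cases, with 8 to 17 genes at an unadjusted p under 0.05. The difference of responses had 11 calls without WT control number 2, 2 without WT IL-6 number 1, 1 and 3 without HET control number 1 and 2, and 2 and 1 without HET IL-6 number 1 and 2. Modelling GC content and length gave 19 calls for IL-6 in HET, 8 higher and 11 lower, beside 1790 and 1794 of 13721 genes. For HET against WT it gave 3 calls in control, 2 higher (Ezh2 and Nsd2) and 1 lower (Sirt1), beside 349 and 339 genes. After IL-6 there were 5 (10.4% of all genes) and averaged 1 (1.97%). The same model reversed the log2 difference of Kmt2b (−0.0546 after IL-6, −0.041 averaged) and Ehmt2 (−0.0128 and −0.0026). Shares of all genes at an unadjusted p under 0.05 were not counted. For HET against WT in control, total count scaling gave 2 calls, DESeq2 3 and no filter 4. RLE scaling changed no call on a named gene.

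A replicate block over all groups gave 6 calls for IL-6 in HET, 0 for HET against WT in control and 3 for the difference. Where it gave 0, 17 genes had an unadjusted edgeR p under 0.05, and the share of all genes was not counted. A replicate block nested in genotype gave 7 for IL-6 in WT, 3 in HET and 1 for the difference. Same-numbered libraries were not shown to be paired: the correlation of their differences over 13721 genes was −0.113 between WT control and WT IL-6 and 0.152 between HET control and HET IL-6. The causes of these changes were not tested. Depth limits Hdac11, with 1 to 18 counts, and 2 libraries in a group limit every comparison.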
